A study of Mus musculus with 8 samples.

Results

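Layer 6 intratelencephalic (L6IT) neurons are excitatory projection neurons of the deep cortex. Their axons stay within the telencephalon and reach other cortical areas and the striatum, unlike those of the layer 6 corticothalamic (L6CT) neurons beside them, which project to the thalamus. They use glutamate, which the vesicular transporter Slc17a7 loads into synaptic vesicles, and neurons of this kind in primary visual cortex (V1) change their transcription when visual input changes: immediate early transcription factors are induced first, and secreted factors and synaptic proteins follow.

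L6IT nuclei were taken by the cell type given in the deposited cell table, which held 6776 of them among 102330 nuclei of mouse V1 and among 69372 nuclei of 8 excitatory types. All mice were 21 days old, carried loxP-flanked GR alleles (GRfl/fl; GR is the glucocorticoid receptor, encoded by Nr3c1) and had received at birth an adeno-associated virus whose GfaABC1D promoter is used to drive expression in astrocytes. The virus of the GR-KO animals encoded Cre with membrane-targeted EGFP. That of the GR-Con animals encoded ΔCre with the same EGFP, so the controls also carried virus and the loxP-flanked alleles, and neurons were not the intended target in either genotype. Rearing was either normal (NR) or dark (DR), so that rearing and genotype made 4 groups of 2 libraries each, 1 male and 1 female. The labels give single animals but neither a batch nor a litter.

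UMI counts of the L6IT nuclei were summed per library, so that n counts libraries, and levels are given in CPM, the usual scaling of a count to the total of that sum. L6IT nuclei per library ran from 568 to 1094, their summed UMIs from 12955605 to 23571190, and the median UMI count of a nucleus was lowest in the female DR GR-KO library, at 16493.5, and highest in the female NR GR-KO library, at 35197. Only 3 L6IT barcodes also occurred in another library. L6IT nuclei made up 9.79 ± 0.966% of excitatory nuclei in DR and 9.73 ± 0.975% in NR (SD, n = 4 each; exact permutation test, two-sided, p = 1.0), and 9.63 ± 1.03% in GR-KO against 9.89 ± 0.889% in GR-Con (p = 0.743, where 0.0286 is the smallest p this test can give).

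The label was checked against marker genes. Slc17a7 stood at 232 ± 29.2 CPM (n = 8) and had a UMI in 97.9% of L6IT nuclei, and this mean was the highest of the 8 excitatory types. Osr1, a zinc finger factor that marks L6IT neurons, was at 10.4 CPM against at most 0.260 CPM in the other excitatory types. The opioid peptide precursor Penk, the collagens Col27a1 and Col18a1 and the kappa opioid receptor Oprk1 were also highest in L6IT among excitatory types. So was the activin-binding protein Fst (8.85 CPM, with 8.14 CPM in L2/3). Col23a1 and Sulf1 were higher in L6b, and Zfp804b was higher in L5PT (1118 against 972 CPM). Outside the excitatory types, Osr1 and Col18a1 were higher in vascular leptomeningeal cells (74.1 and 29.6 CPM) and Col27a1 in microglia (281 CPM). Penk was higher in Vip interneurons (12.9 CPM) and Oprk1 in Sst interneurons (7.60 CPM). Car3, a marker of one known L6IT subtype, was near 0, at 0.0215 CPM. Of markers of the neighbouring types, the corticothalamic factor Foxp2 was at 19.5 CPM against 1237 in L6CT, and the near-projecting marker Tshz2 at 2.31 CPM against 3596 in L5NP. Others were less far apart: the corticothalamic marker Ntsr1 was at 12.2 CPM in L6IT and 13.1 CPM in L6CT, the L5PT marker Npr3 at 29.5 and 113 CPM in L6IT and L5PT, and the layer 4 marker Rorb at 43.5 and 1516 CPM in L6IT and L4. Among genes at 20 CPM or more in L6IT, the largest ratio to any other excitatory type was that of Dnah14, an axonemal dynein heavy chain, at 197 ± 18.2 CPM against 6.55 CPM in layer 5 intratelencephalic (L5IT) neurons.

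**Figure D1:**
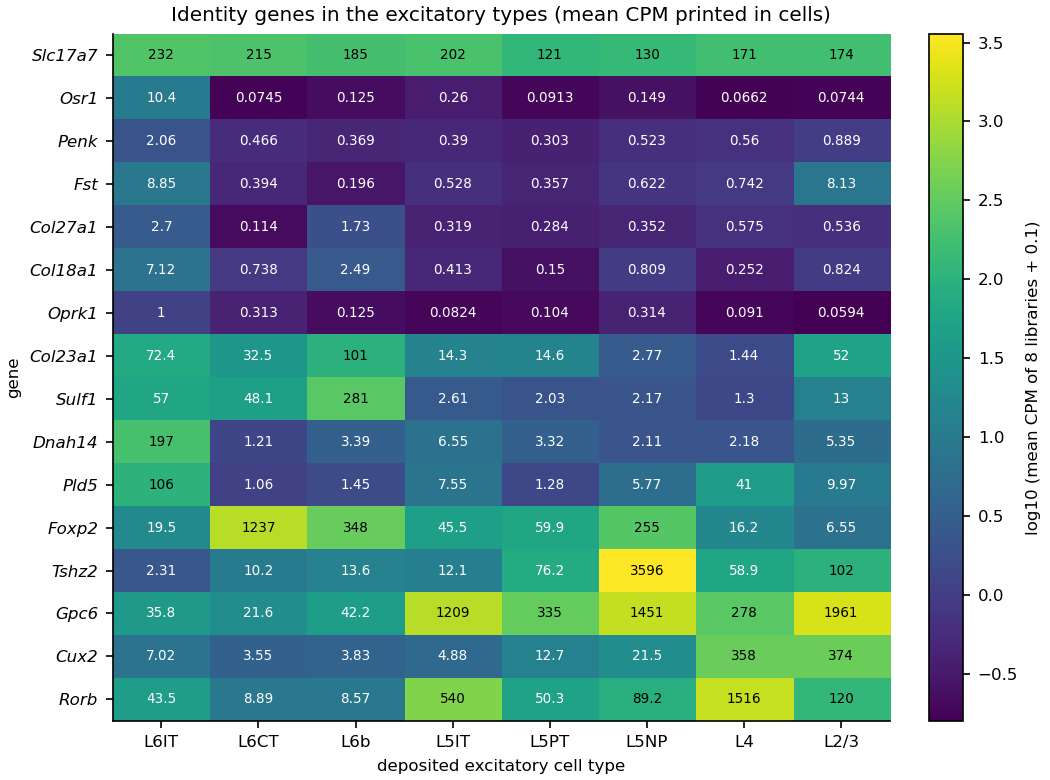
Mean CPM over 8 libraries of 16 identity genes (rows) in the 8 deposited excitatory types (columns); colour gives log10 of the mean CPM plus 0.1, and the number in each cell is the mean CPM. Osr1 and Dnah14 stand out in L6IT, at 10.4 and 197 CPM, while Foxp2 is at 1237 CPM in L6CT and Gpc6 at 1209 CPM in L5IT.

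The targeted gene and the vector were read next. Nr3c1 in L6IT was at 192 CPM (male) and 248 CPM (female) in NR GR-Con and at 205 and 281 CPM in NR GR-KO. In DR it was at 245 and 198 CPM in GR-Con and at 223 and 238 CPM in GR-KO. The libraries of both genotypes overlapped in each rearing, and the log2 difference between genotypes was 0.12 in NR (SE 0.23) and 0.06 in DR (SE 0.19). These are counts of 3′ ends and do not show whether the loxP-flanked part was cut out. A Cre UMI was found in 79 of 2982 GR-KO nuclei (2.65%, exact 95% interval 2.10 to 3.29%, counting error only) and in 0 of 3794 GR-Con nuclei, which allows a share of up to 0.0791% of nuclei with a UMI and sets no limit on nuclei that express the vector. By library the GR-KO share was 5.92% (53 nuclei) in the NR male and 1.94% in the NR female, and 0.922 and 1.05% in the DR male and female. Without the NR GR-KO male library it was 1.25% (26 of 2087 nuclei). A UMI assigned to ΔCre was found in 54 GR-KO nuclei (1.81%), 38 of them in the NR male library, and in 4 GR-Con nuclei (0.105%), the opposite order to the vectors that the labels give. The nuclei had been sorted as GFP-negative, so these shares are of the nuclei that passed that gate. In GR-KO oligodendrocytes, which are not expected to express the vector, 0.149% of nuclei had a Cre UMI at a median of 9467 UMIs per nucleus, against a median of 20493 in the L6IT nuclei. The share was 5.63% in GR-KO L5IT neurons, 4.59% in GR-KO astrocytes and 0.587% in GR-KO L6CT neurons. Median depths were 24462.5, 6393.5 and 18864 UMIs per nucleus in the same order. EGFP had another order: among GR-KO nuclei a UMI was found in 8.25% of astrocytes, 1.03% of L5IT, 0.738% of L6IT and 0.165% of L6CT.

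One library stood apart in immediate early genes: of the 17 genes on that list, 15 had their highest L6IT level in the NR GR-KO male library. Arc, an immediate early regulator of AMPA receptor endocytosis, was at 40.7 CPM there and between 3.39 and 11.5 CPM in the other 7 libraries. Below, the immediate early results are given with and without it.

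Dark rearing was compared with normal rearing over both genotypes (4 DR against 4 NR libraries, genotype as a term). In the edgeR likelihood ratio test 1059 of 15580 genes passed an adjusted p of 0.05, which is 6.8% of the genes tested, with 528 higher in DR (3.39%) and 531 lower (3.41%). The stricter quasi-likelihood F-test called 548 genes and DESeq2 called 960, and 523 genes were called by all 3 tests (294 higher and 229 lower). Of the 1059 genes, 388 were also called whichever library was left out. Of the 1059 genes, 797 had no overlap between the NR and DR libraries. Calling a gene favours separate libraries, and this share was not taken over all genes tested. A gene is said below to have risen or fallen where it passed the likelihood ratio test. The list counts below stand against the 3.39% and 3.41% of all genes. The 12 genes with the largest changes that follow were chosen among called genes without overlap, and each was called by all 3 tests and under all 8 omissions.

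The 6 genes with the largest rise are given first. Matn2 (matrilin-2, an adaptor protein of the matrix) was at 35.1, 34.7, 44.7 and 33.1 CPM in the NR libraries and at 76.1, 98.4, 110 and 111 CPM in the DR libraries. The log2 fold change was 1.41 (SE 0.12, adjusted p = 2.86e-28). Spon1 (F-spondin, a secreted protein that guides axons) stood between 55.0 and 73.2 CPM in NR and between 102 and 184 CPM in DR, a log2 change of 1.26 (SE 0.17). Col23a1, a transmembrane collagen and one of the L6IT markers, rose from 45.6 ± 14.6 to 99.1 ± 26.9 CPM (log2 1.11, SE 0.25).

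Inpp4b, a phosphatase of phosphoinositide lipids, rose from 43.1 ± 13.5 to 97.9 ± 22.3 CPM (log2 1.20, SE 0.21). Sept9, a septin of the cytoskeleton, rose by 1.08 on the log2 scale (SE 0.15), and Arhgef28, an exchange factor for the small GTPase RhoA, by 1.04 (SE 0.19).

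The largest fall in a well-expressed gene was that of Gm32647, a long intergenic RNA on chromosome 7 (94042691 to 94709171, plus strand, GRCm38). It stood at 336, 385, 241 and 234 CPM in the NR libraries and at 123, 144, 92.7 and 106 CPM in the DR libraries. The log2 change was −1.35 (SE 0.11, adjusted p = 8.13e-33). Osbpl3, an oxysterol-binding protein that carries lipids at membrane contacts, was at 361 to 529 CPM in NR and at 135 to 284 CPM in DR (log2 −1.34, SE 0.24). Nrep, a small protein tied to nerve regeneration, fell by 1.17 (SE 0.20), Itgav, an integrin alpha subunit, fell by 1.17 (SE 0.23) and Tmtc1, a mannosyltransferase of the endoplasmic reticulum, fell by 0.99 (SE 0.19) on the log2 scale. The uncharacterized 9630028H03Rik fell by 0.90 (SE 0.17).

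**Figure D2:**
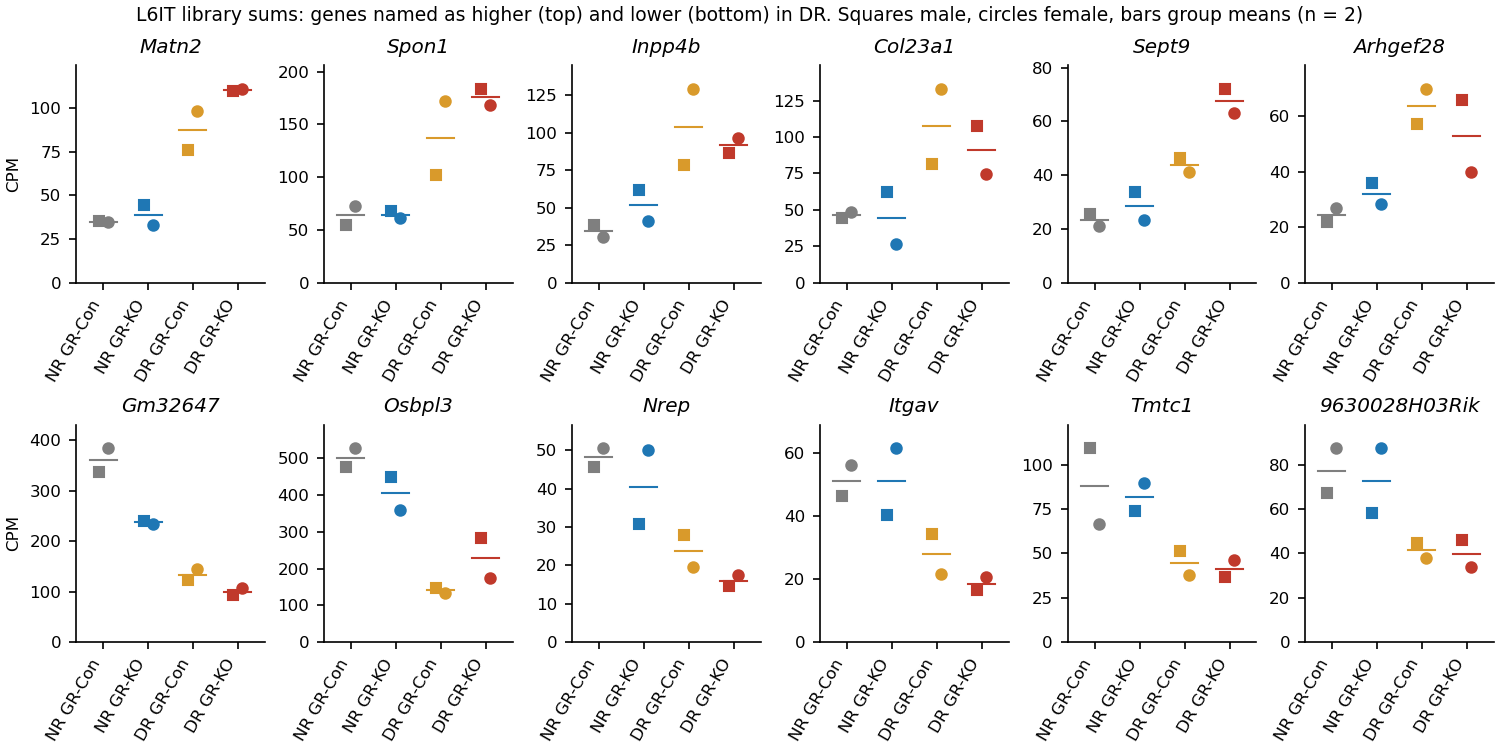
CPM of L6IT sums in each library for the 6 genes with the largest rise (top row) and the 6 with the largest fall (bottom row) in DR; squares are male, circles female, and horizontal bars group means (n = 2). The genes were chosen among those without overlap of the NR and DR libraries, and Matn2 is at 33.1 to 44.7 CPM in NR and 76.1 to 111 CPM in DR.

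The late activity-regulated list holds secreted and synaptic products of neuronal activity. Of 11 late activity-regulated genes, 0 rose and 4 fell, with a list median log2 change of −0.54 against −0.01 over all genes tested. Scg2, the precursor of the peptide secretoneurin, was at 34.2, 32.4, 34.5 and 32.5 CPM in NR and at 17.6, 23.4, 19.8 and 18.1 CPM in DR. The groups did not overlap, and the change was −0.77 on the log2 scale (SE 0.10, adjusted p = 6.41e-11). Nrn1, a membrane-anchored neuritin that promotes neurite growth, fell from 115 ± 11.02 to 73.1 ± 17.6 CPM (log2 −0.68, SE 0.12), and Inhba, the activin beta A subunit, fell from 30.2 ± 1.36 to 20.9 ± 2.64 CPM (log2 −0.54, SE 0.10). These 3 genes were called by all 3 tests and under every omission. Nptx2, a secreted pentraxin that clusters AMPA receptors, fell by 0.82 (SE 0.26, adjusted p = 0.0329), but the quasi-likelihood test did not call it (adjusted p = 0.103) and it lost its call in 4 of 8 omissions.

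The neurotrophin Bdnf was at 33.5 ± 4.52 CPM in NR and 27.3 ± 5.24 CPM in DR (log2 −0.30, adjusted p = 0.327), and the scaffold Homer1 at 273 ± 90.8 and 318 ± 62.4 CPM (log2 0.21, adjusted p = 0.579). Neither passed the test.

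The sequence before the start of Scg2 is shown because it holds the cyclic AMP response element (CRE), the 8-base element bound by the activity-regulated factor CREB. The 250 bases before the RefSeq start of Scg2 lie at chr1:79440027-79440276 on the minus strand of GRCm38.p6, and capitals mark the CRE, whose first base is 68 bases before the start.
Scg2: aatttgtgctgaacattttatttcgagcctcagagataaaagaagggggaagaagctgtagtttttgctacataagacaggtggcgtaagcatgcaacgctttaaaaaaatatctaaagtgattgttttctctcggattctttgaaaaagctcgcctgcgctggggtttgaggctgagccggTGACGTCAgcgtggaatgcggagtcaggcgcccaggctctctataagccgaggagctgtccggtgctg
The same letters, TGACGTCA, which read alike on both strands, were found in 508 of 32851 promoters of this length (1.55%). On the late activity list they were also present for Pcsk1, a prohormone convertase that did not pass the test (log2 −0.29, adjusted p = 0.251), and not for Inhba, so that they were present for 2 of the 8 genes with a promoter in the table. Nrn1, Nptx2 and Vgf were not examined.

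None of 15 immediate early genes tested passed the likelihood ratio test or the quasi-likelihood test, and DESeq2 called 1. Their median log2 change was −0.68, and 13 of 15 changes were negative. Without the NR GR-KO male library the median was −0.07 and 8 of 15 were negative, and without the NR GR-KO female library 7 of 16 were called lower. The late activity-regulated list kept 4 calls lower and a median of −0.44 without the NR GR-KO male library. Egr1, a zinc finger factor induced by visual input, was at 22.6 ± 12.2 CPM in NR and 12.5 ± 2.92 CPM in DR (log2 −0.85, SE 0.29, adjusted p = 0.0507), and DESeq2 called it (adjusted p = 0.0306). Without the NR GR-KO male library its likelihood ratio change was −0.46 (adjusted p = 0.265), and it was called in 1 of the 8 omissions, that of the NR GR-KO female library (log2 −1.09, adjusted p = 1.17e-06).

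Of 6 neuropeptide genes that could be tested, 0 rose and 3 fell. Penk, which encodes the enkephalins and is one of the L6IT markers, stood at 3.73, 3.81, 2.32 and 4.80 CPM in NR and at 0.822, 0.679, 0.154 and 0.154 CPM in DR. The groups were separate, and the change was −3.06 on the log2 scale (SE 0.43, adjusted p = 6.46e-10), at a low level. Penk had a UMI in 3.78% of L6IT nuclei, and its highest level of all types was in Vip interneurons, at 12.9 CPM. Vip and Npy, peptides of interneurons, fell too, by 1.15 and 1.23 on the log2 scale, from 2.84 ± 0.936 and 2.27 ± 0.900 CPM, and the quasi-likelihood test called neither (adjusted p = 0.0780 and 0.124). The inhibitory markers summed to between 20.0 and 41.6 CPM in the NR libraries and between 22.1 and 34.3 CPM in the DR libraries, and 0 of 5 of them were called, but all 5 changes were negative, with a median log2 change of −0.35 against −0.01 over all genes tested. The part of interneuron RNA in the results for Penk, Vip and Npy was not tested.

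Receptors and channels changed in both directions. Of 21 ionotropic glutamate receptor and auxiliary genes, 4 rose and 3 fell. Gria1, a subunit of AMPA receptors, stood at 1260, 1305, 1310 and 1167 CPM in NR and at 1411, 1773, 1796 and 1644 CPM in DR, a change of 0.39 (SE 0.10, adjusted p = 0.00428). The delta receptor gene Grid1 rose by 0.49, the kainate subunit Grik5 by 0.42 and the AMPA auxiliary gene Cacng2 by 0.49 on the log2 scale. The genes that fell were of the kainate receptors: the subunit Grik2 fell by 0.39 and the auxiliary genes Neto1 and Neto2 fell by 0.43 and 0.47. The quasi-likelihood test called all of these but Cacng2 and Grik2.

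Among 25 sodium, calcium and HCN channel genes, 3 rose. Cacna1h, a T-type calcium channel, was at 3.23 to 4.80 CPM in NR and 9.65 to 17.7 CPM in DR (log2 1.43, SE 0.20), and the second T-type gene Cacna1g rose by 0.62 (SE 0.13). Cacna1e, an R-type channel, rose by 0.26. The sodium channel Scn1a fell from 247 ± 18.8 to 140 ± 22.3 CPM (log2 −0.82, SE 0.14). Of 33 genes on the list of voltage-gated potassium channels, which also holds related genes, 2 rose and 2 fell. Kcnab2, an auxiliary subunit, rose by 0.44 and Kcnn3, a calcium-activated channel, by 0.73 on the log2 scale. Kcnc2 fell by 0.57 and Kcnv1 by 0.77. Kcnc2 encodes a channel for fast repolarization. Kcnn3 was not called by the quasi-likelihood test.

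Axon guidance and adhesion genes were counted next. Of 29 guidance ligands, 4 rose and 2 fell. Slit1, a repellent ligand of Robo receptors, rose from 56.0 ± 5.21 to 86.2 ± 13.1 CPM (log2 0.61, SE 0.12), and the semaphorins Sema4a, Sema4d and Sema5b rose by 0.70, 0.55 and 0.37. Sema3a, a secreted repellent, fell from 113 ± 11.5 to 78.2 ± 11.6 CPM (log2 −0.53, SE 0.14), and Sema3e fell by 0.34. Of 25 guidance receptors, Ephb2 and Plxna1 rose by 0.54 each and Plxna2 fell by 0.39, against 3.39% and 3.41% of all genes tested. The quasi-likelihood test called Slit1, Sema4d, Sema3a and Plxna1 and not the other 5.

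Of 20 cadherin and protocadherin genes, 1 rose and 3 fell. Cdh10, a type II cadherin, fell from 930 ± 46.3 to 597 ± 132 CPM (log2 −0.65, SE 0.15), Cdh9 fell from 349 ± 74.8 to 201 ± 26.5 CPM (log2 −0.82, SE 0.17), and Pcdh20 fell from 2.88 ± 1.10 to 0.746 ± 0.140 CPM (log2 −1.96, SE 0.37). Cdh13, a cadherin held by a lipid anchor, rose by 0.35, without a call by the quasi-likelihood test. Of 40 synaptic adhesion genes, Flrt1, Cntnap2 and Cntnap4 rose and Slitrk1, Slitrk4 and Flrt2 fell.

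The study places 3 axonal genes in a program raised by astrocyte GR-KO in excitatory neurons, compared under NR. It reports that a similar set rose with DR in wild-type excitatory neurons. None of the 3 was called here, in L6IT alone and with rearing compared over both genotypes. Gap43, a growth cone protein, was at 105 ± 17.4 CPM in NR and 134 ± 16.4 CPM in DR (log2 0.35, SE 0.14, adjusted p = 0.127). Epha3, an ephrin receptor, was at 230 ± 23.9 and 209 ± 8.94 CPM (log2 −0.14, SE 0.10, adjusted p = 0.444). Robo1, a Slit receptor, was at 687 ± 20.5 and 644 ± 126 CPM (log2 −0.09, SE 0.16, adjusted p = 0.829).

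Of 15 genes for glucocorticoid receptors and their classical targets, 1 rose and 1 fell, against 3.39% and 3.41% of all genes tested. Nr3c2, the mineralocorticoid receptor, which binds the same hormone, stood at 76.1, 91.1, 94.9 and 85.3 CPM in NR and at 146, 115, 166 and 159 CPM in DR. The groups were separate, and the log2 change was 0.75 (SE 0.13, adjusted p = 1.17e-06). The kinase gene Sgk1, a classical target, fell by 0.46 (SE 0.15), without a call by the quasi-likelihood test (adjusted p = 0.103). Of 16 clock genes, Per3 and Ciart fell by 0.34 and 0.83 on the log2 scale, and neither was called by the quasi-likelihood test.

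Markers of other cells moved as well. The oligodendrocyte marker Mog fell by 1.26, of 4 precursor markers 1 fell (Olig1) and of 5 microglial markers 1 fell (C1qa). The oligodendrocyte markers summed to 93.7 to 157 CPM in NR and 87.6 to 138 CPM in DR. Of the 528 genes higher in DR, 42.4% were at least 4 times higher in some other cell type than in L6IT, as were 41.6% of the 531 lower genes and 31.6% of all genes tested. Whether RNA from other cells contributed to these changes was not tested.

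**Figure D3:**
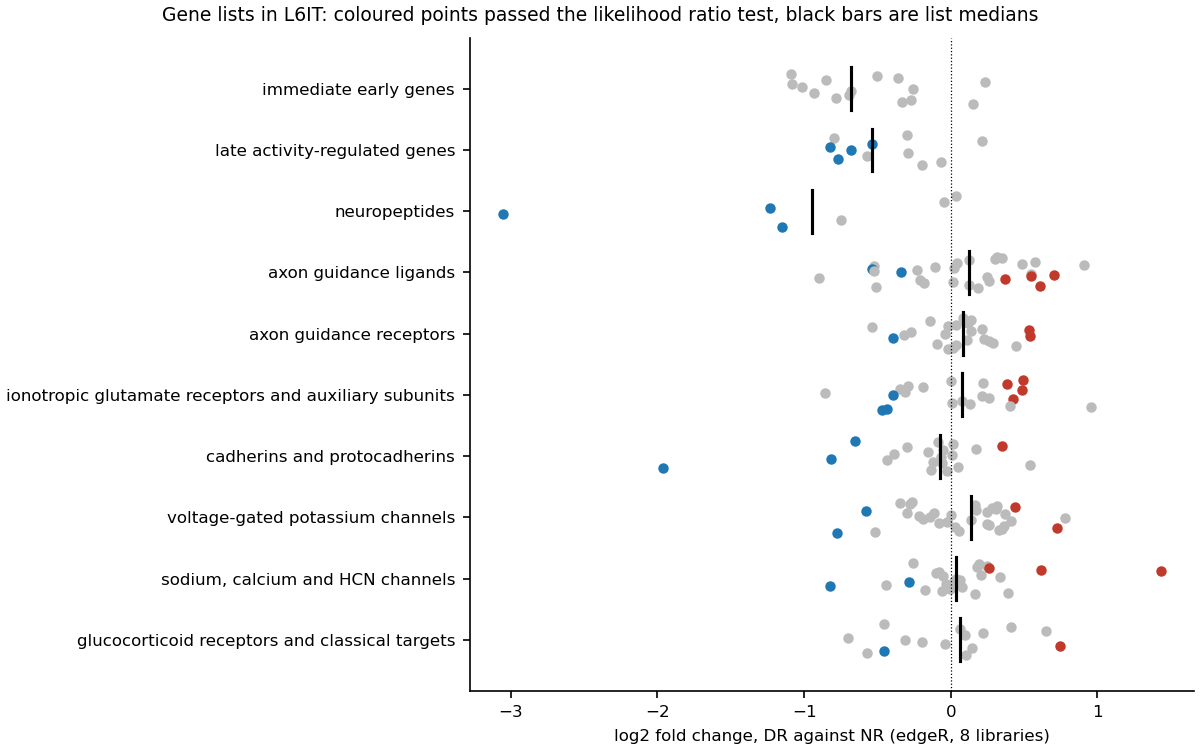
Log2 fold change of DR against NR in L6IT neurons (8 libraries) for the members of 10 gene lists; each point is a gene, red and blue points passed the likelihood ratio test as higher and lower, grey points did not, and black bars are list medians. The late activity-regulated genes have a median of −0.54 with 4 called lower, and the immediate early genes a median of −0.68 with 0 called.

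L6IT nuclei were not uniform, and the genes that changed were unevenly spread over them. Nuclei were thinned to 10000 UMIs each, which kept 6591 of 6776, and the share of nuclei with a UMI of each gene was taken. Pld5 is a phospholipase D family member and one of the leading L6IT genes by its ratio to other excitatory types. It had a UMI in 20.3% of the thinned L6IT nuclei, against 0.718% in L6CT and 4.24% in L5IT. Median depths before thinning were 19800.5 UMIs in L6IT, 17934 in L6CT and 22868 in L5IT. The nearest excitatory type in level was L4, at 41.0 CPM against 106 CPM in L6IT. Lamp5 interneurons held the highest Pld5 level of all types. Of nuclei with a Pld5 UMI, 58.9% also had Gm32647, against 23.3% of those without, and Osr1, Sulf1 and Col23a1 were rarer with Pld5 than without it (3.74% against 11.5%, 5.68% against 33.1%, and 6.43% against 40.6%). Each of these differences had the same direction in all 8 libraries. These pairs are a description of the labelled nuclei, in which nuclei of 1 library share their source.

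Some genes that rose in DR were found in the same nuclei. Inpp4b had a UMI in 34.9% of nuclei with Spon1 and in 9.65% of those without, and Matn2 in 56.5% of nuclei with Inpp4b and in 30.1% of those without. Gm32647, which fell, was rarer where Spon1 was present, at 13.2% against 42.6%. Fst and Col18a1 marked a further small fraction: Fst was present in 27.6% of nuclei with Col18a1 and in 4.50% of those without. All of these held in 8 of 8 libraries.

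Pld5 itself fell in DR by 0.66 on the log2 scale (SE 0.16, adjusted p = 0.00138), and the share of nuclei with a Pld5 UMI was 24.4 ± 3.85% in NR and 17.0 ± 1.32% in DR. Fewer nuclei of one kind and less RNA of a gene per nucleus cannot be told apart from the sums. Shares within nuclei with and without Pld5 are given as a description. Because Pld5 itself moved, they do not separate these either. Gm32647 was found in 69.8 ± 3.02% of Pld5 nuclei in NR and in 44.7 ± 3.29% in DR, and in 29.5 ± 1.01% and 17.5 ± 3.71% of the others, with no overlap of libraries in either class. Cdh9, Nrn1, Itgav, Col23a1 and Arhgef28 also separated in both classes. The gap was narrow for Itgav with Pld5 (lowest NR 40.72%, highest DR 40.69%) and for Col23a1 without it (highest NR 40.43%, lowest DR 40.72%). Col23a1 was also close with Pld5 (highest NR 5.155%, lowest DR 5.517%). Gm32647, Itgav, Col23a1 and Arhgef28 had been named for sums without overlap, and the share over all genes was not taken. Cdh9 was at 73.6 ± 6.28% and 41.5 ± 4.73% with Pld5 and at 86.3 ± 1.75% and 75.1 ± 3.64% without. With Pld5, Col23a1 went from 3.27 ± 1.79% to 10.03 ± 4.63% and Arhgef28 from 10.7 ± 3.48% to 23.2 ± 2.74%.

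Other genes differed between NR and DR in nuclei without Pld5 while their shares with Pld5 overlapped. Osbpl3 was found in 98.2 ± 1.57% of Pld5 nuclei in NR and 93.8 ± 3.17% in DR, and in 89.4 ± 4.68% and 56.3 ± 12.3% of nuclei without Pld5. Spon1 was at 8.23 ± 2.42% and 8.0 ± 1.19% with Pld5 and at 38.9 ± 1.83% and 57.9 ± 7.44% without. Inpp4b was at 5.03 ± 2.15% and 4.87 ± 2.79% with Pld5 and at 16.8 ± 3.94% and 28.8 ± 6.68% without. Its gap without Pld5 was narrow (highest NR 22.57%, lowest DR 22.96%). Matn2, Sept9 and Scg2 were also separate without Pld5, and their means with Pld5 moved in the same direction although libraries overlapped: Matn2 from 17.5 ± 1.01% to 28.9 ± 8.83%, Sept9 from 31.5 ± 9.98% to 54.5 ± 13.3% and Scg2 from 26.5 ± 5.39% to 16.2 ± 4.12%. Nrep was lower in DR in both classes, separate with Pld5 (34.6 ± 3.65% in NR and 14.1 ± 1.74% in DR). Without Pld5 (30.5 ± 5.17% and 16.2 ± 4.82%) its libraries overlapped narrowly, with the lowest NR share at 23.0% and the highest DR share at 23.1%. The difference between the classes was not tested, and shares near 100% or near 0 leave little room to move.

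For comparison, thinned L6CT nuclei had a UMI of Spon1 in 16.1%, of Inpp4b in 20.6%, of Matn2 in 10.2% and of Osbpl3 in 82.5% of nuclei, and L5IT nuclei had Matn2 in 3.83% and Cdh9 in 4.53%. The Spon1 and Inpp4b shares in Pld5 nuclei were below those in L6CT.

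**Figure D4:**
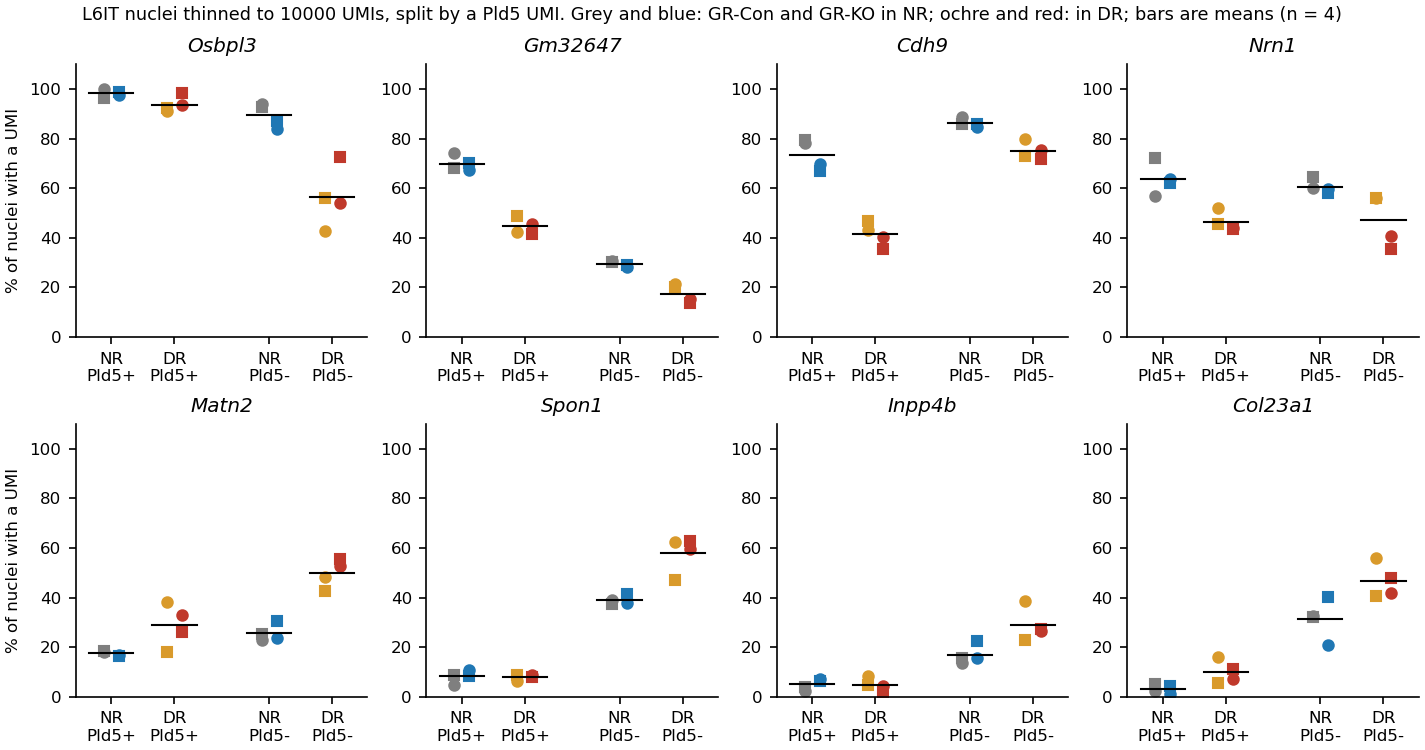
Percent of thinned L6IT nuclei with a UMI of 8 genes, in nuclei with (Pld5+) and without (Pld5-) a Pld5 UMI, in NR and DR; each point is a library (squares male, circles female; grey NR GR-Con, blue NR GR-KO, ochre DR GR-Con, red DR GR-KO) and bars are means of 4 libraries. Gm32647 is lower in DR in both classes (69.8% to 44.7% and 29.5% to 17.5%), while the Spon1 shares of NR and DR are separate in nuclei without Pld5 and overlap in those with it (38.9% to 57.9%, against 8.23% to 8.0%).

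The rearing comparison was then made in each genotype alone, with 2 libraries against 2 that the other genotype does not share. In GR-Con 219 of 15378 genes passed (1.42%), 141 of them higher in DR (0.917%) and 78 lower (0.507%). The quasi-likelihood test called 0 genes there, with 1380 at an unadjusted p under 0.05, and DESeq2 called 107. In GR-KO 851 of 15241 genes passed (5.58%), 424 higher (2.78%) and 427 lower (2.8%), while DESeq2 called 510 and the quasi-likelihood test 22. Single libraries moved these counts: GR-Con gave 1068 calls without the DR GR-Con male library, and GR-KO gave 130 without the DR GR-KO male library. Of the genes higher in DR GR-Con, 104 of 141 (73.8%) were at least 4 times higher in another cell type than in L6IT, and of the lower ones 52.6%, against 31.0% of all genes tested. In GR-KO these shares were 40.8% of the higher and 59.95% of the lower genes. Both near-projecting markers that could be tested, Tshz2 among them, rose in GR-Con, and the 5 markers of that type summed to 2.72 and 3.75 CPM in NR GR-Con and 10.99 and 11.7 CPM in DR GR-Con. Their part in the calls was not tested.

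The genes called in the 2 genotypes were then set side by side. Of the 212 genes called in GR-Con and tested in both, 182 (85.9%) had the same sign in GR-KO and 86 (40.6%) were called there in the same direction. Of the 821 called in GR-KO, 712 (86.7%) had the same sign in GR-Con and the 86 were 10.5%. Over all 14982 genes tested in both, 66.2% had the same sign, and 3 genes were called in opposite directions.

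Of the genes called in both genotypes, the ones with the firmest adjusted p-values were as follows. Matn2 rose by 1.30 (SE 0.17) in GR-Con and by 1.52 (SE 0.17) in GR-KO on the log2 scale. St3gal1, a sialyltransferase of the Golgi, rose by 1.59 and 1.02, Sphkap, an anchoring protein for protein kinase A, by 1.27 and 0.78, Cacna1h by 1.27 and 1.60, and Otof (otoferlin, a calcium sensor of vesicle fusion) by 1.46 and 1.27. Otof is on the list of layer 2/3 markers, at a mean of 60.6 CPM in L2/3 and 4.47 CPM in L6IT. Sept9 rose by 0.90 and 1.27.

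Gm32647 fell by 1.46 in GR-Con and by 1.24 in GR-KO. Penk fell by 2.35 and 4.45, and Abi3bp, a matrix protein that binds collagen, fell by 1.84 and 1.71. Igfn1, an immunoglobulin-domain protein, fell by 1.17 in each genotype. Arr3, an arrestin best known from cone photoreceptors, fell by 1.94 and 3.56, and the uncharacterized A830012C17Rik fell by 2.51 and 3.0. DESeq2 called these 12 genes in both genotypes.

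The leading genes of each genotype were named by size of change, with no test of a difference between the genotypes. Osbpl3 was at 476 and 529 CPM in NR GR-Con and at 147 and 135 CPM in DR GR-Con, a log2 change of −1.85 (SE 0.18, adjusted p = 9.01e-21). In GR-KO it was at 449 and 361 CPM in NR and at 284 and 173 CPM in DR. Nnat, an imprinted membrane proteolipid, rose in both, from 17.4 ± 2.05 to 47.8 ± 24.9 CPM in GR-Con (log2 1.42, SE 0.35) and from 29.6 ± 15.7 to 117 ± 36.5 CPM in GR-KO (log2 2.00, SE 0.38). Bcl11b, a transcription factor of deep-layer neurons, rose in GR-KO by 1.36 (SE 0.23), and Airn, a long imprinted antisense RNA, by 1.23 (SE 0.19). Jcad, a junctional protein, fell there by 1.61 (SE 0.28). Airn overlaps Igf2r on the opposite strand, and the reads of such a pair can be assigned to either where strand is not used. In GR-Con, Cntnap5b, a neurexin-family adhesion gene, rose by 1.48 (SE 0.32), and the complement component C7 fell by 0.99 and the folate enzyme Mthfd1l by 0.94.

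Activity genes were read in each genotype as well. Scg2 fell by 0.72 (SE 0.18) in GR-Con and by 0.81 (SE 0.14) in GR-KO. Egr1 fell in GR-Con by 0.80 (SE 0.20, adjusted p = 0.00730), from 19.0 and 18.0 CPM to 9.19 and 12.4 CPM, the only immediate early gene called there, and DESeq2 did not call it (0.0653). In GR-KO its change was −0.89 (SE 0.48, adjusted p = 0.337), with 40.5 CPM in the NR male library and 13.1 CPM in the NR female library. It was 0.11 (adjusted p = 0.812) without the NR male library and −1.47 (adjusted p = 6.17e-18) without the NR female library. Nrn1 and Inhba were called lower in GR-KO alone, and Nptx2 in neither genotype alone. A call in 1 genotype only is no test of a difference between the genotypes.

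The astrocyte genotype was compared in each rearing. In NR, 62 of 15507 genes passed (0.4%), 60 higher in GR-KO (0.387%) and 2 lower (0.0129%). The 60 include the viral features Cre and ΔCre. The count of 62 became 10 and 33 without the male and the female NR GR-Con library, and 189 and 179 without the male and the female NR GR-KO library. None passed the quasi-likelihood test (0 calls), with 584 genes at an unadjusted p under 0.05, and DESeq2 called 17. Of the 60 genes higher in GR-KO, 56 (93.3%) were at least 4 times higher in another cell type than in L6IT, against 31.6% of all genes tested, and microglia held the highest level of 33 of them. Examples are Ly86, Dock8 and Runx1, which are known from myeloid cells and were below 6 CPM in each library. Without the viral features the share higher in another type was 54 of 58 (93.1%). The 5 microglial markers summed to 26.3 and 23.6 CPM in NR GR-Con and to 30.9 and 45.6 CPM in NR GR-KO, with Cx3cr1 and the other 4 not called. Nuclei labelled microglia numbered 2 in the male and 573 in the female NR GR-Con library, and 4 and 714 in the NR GR-KO libraries. The part of microglial RNA in these calls was not tested.

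Of the 62 genes, 5 reached an average log2 CPM of 5. Gpc6, a glypican that in brain is secreted by astrocytes and promotes synapse formation, was at 14.8 and 12.9 CPM in NR GR-Con and at 55.5 and 44.4 CPM in NR GR-KO (log2 1.83, SE 0.18, adjusted p = 2.30e-20). Tafa1, a secreted chemokine-like ligand, was at 47.2 and 32.5 CPM and at 85.1 and 110 CPM (log2 1.28, SE 0.24). The cation channel Trpc5 rose by 0.84, the ubiquitin ligase Pdzrn4 by 0.63, and Gm32647 fell by 0.63 (SE 0.15). All 5 were called by DESeq2, and Gm32647 lost its likelihood ratio call under each of the 4 omissions.

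The immediate early genes were mostly higher in NR GR-KO, 14 of 15 with a median log2 difference of 0.73, and 0 were called. Without the NR GR-KO male library 2 of 15 were higher, with a median of −0.49 and 2 called, and without the NR GR-KO female library 15 of 16 were higher, with a median of 1.48 and 13 called. Robo1, Epha3 and Gap43 differed by −0.01 (SE 0.15), −0.03 (SE 0.17) and 0.14 (SE 0.19) on the log2 scale between genotypes in NR, and none was called.

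In DR, 66 of 15109 genes passed (0.437%), 40 higher in GR-KO (0.265%) and 26 lower (0.172%). The quasi-likelihood test called 0 (1059 at an unadjusted p under 0.05) and DESeq2 called 25. The count moved strongly with each library left out, so these calls rest on few libraries. Arhgap31, a GTPase-activating protein for Rac and Cdc42, was at 32.4 and 32.2 CPM in DR GR-Con and at 73.1 and 81.1 CPM in DR GR-KO (log2 1.26, SE 0.16, adjusted p = 1.47e-11). In NR Arhgap31 stood at 51.4 and 27.9 CPM in GR-Con and at 74.8 and 28.5 CPM in GR-KO, so that its male libraries were above its female libraries in both genotypes. The salt-inducible kinase Sik2 rose by 0.75 (SE 0.14), the adhesion receptor Adgra1 by 0.73, the syntrophin Sntb2 by 0.71, the pseudokinase receptor Ptk7 by 0.69 and the calcium-binding protein Tesc by 0.88. Of the genes higher in GR-KO, 42.5% were at least 4 times higher in another cell type, and of the lower ones 57.7%, against 30.5% of all genes tested. The oligodendrocyte markers summed to 87.6 and 96.0 CPM in DR GR-Con and 138 and 128 CPM in DR GR-KO, with 1 of 5 called higher, and their part was not tested.

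Tafa1 fell in DR GR-KO by 1.58 (SE 0.39), Jcad by 1.26 (SE 0.25), the neuronal protease inhibitor Serpini1 by 0.82 (SE 0.21) and Nrn1 by 0.59 (SE 0.16). DESeq2 called neither Tafa1 (adjusted p = 0.430), Nrn1 (0.0976) nor Tesc (0.0784). The immediate early gene Fosb rose in DR GR-KO by 1.43 (SE 0.37), at 2.12 CPM in GR-KO.

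The genotype calls of NR and DR were compared, as they share no library. Of 43 genes called in NR and tested in both, 15 (34.9%) had the same sign in DR, against 51.1% of all 14918 genes, and 0 were called in the same direction. Of 63 genes that passed in DR, 36 (57.1%) kept their sign in NR, and 2 genes were called in opposite directions.

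The interaction term (the GR-KO effect under NR less the one under DR) was called for 29 of 15957 genes (0.182%), 25 of them positive (0.157%) and 4 negative (0.0251%). The quasi-likelihood test called 0 (846 at an unadjusted p under 0.05) and DESeq2 called 11. Gpc6 had a term of 2.66 (adjusted p = 5.87e-07) and Tafa1 one of 2.85 (adjusted p = 0.000305), the 2 whose average log2 CPM reached 5. In DR Gpc6 was at 62.3 and 39.6 CPM in GR-Con and at 34.7 and 22.5 CPM in GR-KO, opposite in order to NR. Gpc6 was called under each of the 8 omissions and Tafa1 under 7. Ptk7 had a term of −1.01.

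Both genes were far higher in other neurons. In L5IT Gpc6 was at 851 and 787 CPM in NR GR-Con and at 1106 to 1636 CPM in the other 6 libraries, and in L6CT it was at 12.8 and 10.4 CPM in NR GR-Con and at 19.2 to 32.0 CPM in the others. The NR GR-Con libraries were thus the lowest for Gpc6 in all 3 types. At 10000 UMIs, 98.1% of L5IT nuclei had a Gpc6 UMI, against 8.62 to 27.4% of L6IT nuclei by library and 13.8% of L6CT nuclei. L6IT nuclei with a Gpc6 UMI had Dnah14 in 67.2% of cases, against 70.2% of those without. Cdh9 was found in 66.1% and 78.6% and Osr1 in 6.86% and 10.6% of them, lower with Gpc6 in 8 of 8 libraries for both. Of the 25 genes with a positive interaction term, 24 were at least 4 times higher in another type. The part that RNA of L5IT neurons had in these values was not tested.

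**Figure D5:**
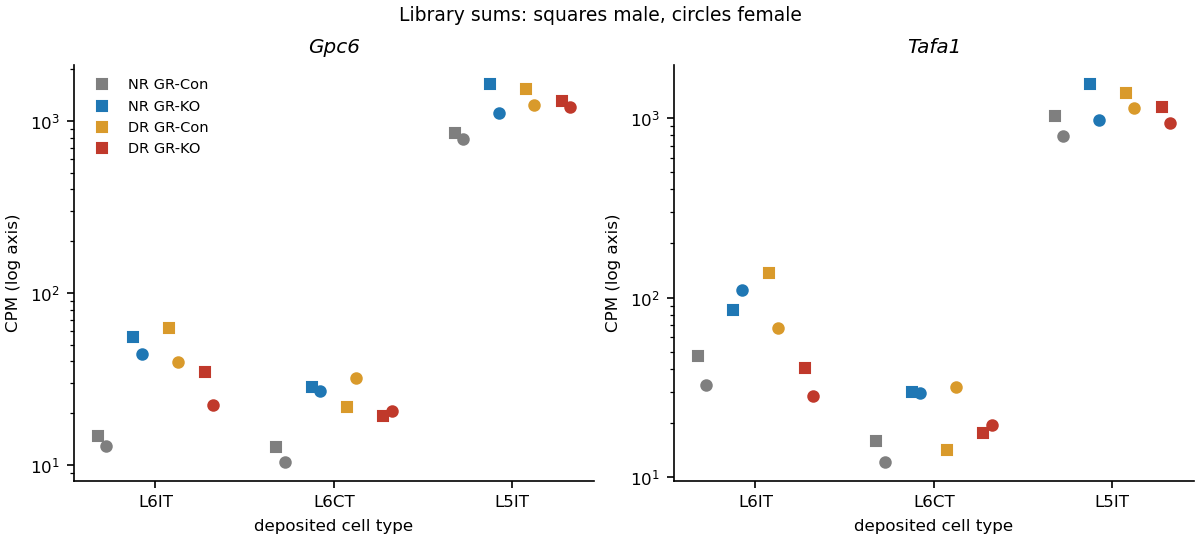
CPM (log axis) of Gpc6 and Tafa1 in each library in L6IT, L6CT and L5IT sums; squares are male, circles female, and colours give the 4 groups. In L6IT, Gpc6 is at 12.9 to 14.8 CPM in NR GR-Con and at 22.5 to 62.3 CPM in the other libraries, and for Gpc6 the NR GR-Con libraries are also lowest in L6CT and L5IT.

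The rearing effect in L6IT was set against that in 2 related types by a term of its own, with the library as a block. Against L6CT it differed for 503 of 17071 genes (2.95%), 218 with a higher value in L6IT (1.28%) and 285 with a lower one (1.67%), while DESeq2 called 232 and the quasi-likelihood test 185. Adamts2, a procollagen protease, was at 64.2 ± 13.4 CPM in NR and 95.2 ± 28.8 CPM in DR in L6IT, and at 11.9 ± 2.78 and 49.6 ± 21.3 CPM in L6CT, a difference of −1.41 (SE 0.20). Sema5b rose more in L6CT as well, from 28.4 ± 11.3 to 105 ± 36.0 CPM (difference −1.52, SE 0.29). Hunk, a kinase, fell in L6IT from 41.5 ± 10.8 to 16.7 ± 7.27 CPM and was at 51.4 ± 6.98 and 53.4 ± 6.42 CPM in L6CT (difference −1.42, SE 0.29). Sorcs2, a sorting receptor, was at 27.0 ± 4.19 and 25.0 ± 2.71 CPM in L6IT and at 49.6 ± 4.54 and 112 ± 52.1 CPM in L6CT (difference −1.16, SE 0.23).

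In the other direction, Ltbp1, a binding protein of latent TGF-beta, dropped less in L6IT than in L6CT (36.3 ± 16.3 to 22.4 ± 6.01 CPM against 67.8 ± 29.5 to 20.2 ± 8.76 CPM, difference 1.09, SE 0.14). Gm32647 was at 38.4 ± 16.6 CPM in NR and 6.22 ± 2.69 CPM in DR in L6CT, so that its proportional fall was larger there (difference 1.28, SE 0.35). Smad3, an effector of TGF-beta signals, and Cdh20 differed by 1.14 and 1.10. Gm32647 and Smad3 were called by neither other test, and Cdh20 not by the quasi-likelihood test. Gap43 had a difference of −0.28 (SE 0.07), called by all 3 tests and under every omission, and the ionotropic glutamate genes Grin2d, Grik3 and Neto2 differed, each with the lower value in L6IT. Of the glucocorticoid list, Fkbp5, a GR target and co-chaperone, had a higher value in L6IT by 0.44 (SE 0.10), also called by all 3 tests, and Nr3c2 was the other gene called.

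Against L5IT the rearing effect differed for 127 of 15987 genes (0.794%), 77 higher in L6IT (0.482%) and 50 lower (0.313%), with 0 by the quasi-likelihood test (1439 at an unadjusted p under 0.05) and 20 by DESeq2. Sphkap was at 56.4 ± 8.79 CPM in NR and 115 ± 17.4 CPM in DR in L6IT, and at 325 ± 21.2 and 361 ± 38.4 CPM in L5IT (difference 0.89, SE 0.13). Foxo1, a transcription factor restrained by insulin signals, differed by 1.14 (SE 0.22) at 3.53 ± 0.869 CPM in NR L6IT. Matn2 and Inpp4b differed by 0.77 and 0.72, without a call by DESeq2.

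Genes with a lower value in L6IT differed in level between libraries in L5IT. Slc26a4, an anion exchanger, was at 54.5 to 98.7 CPM in L6IT, and in L5IT it was at 0.835 to 1.91 CPM in 3 NR libraries, at 31.5 CPM in the NR GR-KO male library and at 10.9 to 36.2 CPM in DR. Dnah14, which was not part of the naming rule here, was split between the same L5IT libraries, with 0.806 to 1.65 CPM in those 3 NR libraries and 4.24 to 18.8 CPM in the other 5 libraries. Rspo2, Cdh9 and Sulf1 had differences of −2.36, −2.22 and −1.52. Slc26a4, Rspo2 and Cdh9 were called under 1, 2 and 2 of the 8 omissions and not by DESeq2. Whether some nuclei labelled L5IT in those libraries belong to L6IT was not tested.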

How the data were processed

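Nuclei of mouse V1 were profiled by droplet-based 3′ single-nucleus RNA-seq after sorting for the DNA dye DRAQ5 with a GFP-negative gate. Per the labels and the methods of the study, the authors aligned reads with Cell Ranger 8.0.1 to mm10 with the viral sequences added, removed nuclei with fewer than 500 or more than 70000 gene counts and predicted doublets (DoubletFinder), and typed nuclei by Louvain clustering (Seurat 5.3.0). The deposited matrix holds UMI counts without normalization (26711 features, 102330 nuclei, all values whole, column sums equal to the cell table). The deposited cell table gives the percent of mitochondrial counts, library, rearing, sex, vector and cell type. Labels were used as given. Because library names carry group and sex but no replicate number, libraries are named by group and sex.

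UMIs were summed per type and library and fitted with edgeR 4.0.16 (R 4.3.3): filterByExpr, TMM, glmFit and glmLRT, two-sided, Benjamini-Hochberg over all genes tested, called at an adjusted p under 0.05. Of these the study's methods state glmLRT and the threshold. The SE of a log2 fold change was taken as its size over the root of the likelihood ratio. The likelihood ratio test is liberal with few libraries, so the quasi-likelihood F-test and DESeq2 1.42.0 are given beside it. Named genes were the largest called changes whose average log2 CPM was 5 or more, without overlap of libraries (up to 6 per direction in rearing and genotype comparisons), up to 3 or 4 called genes per direction for the interaction and the type differences, the firmest calls shared by both genotypes, and called members of the gene lists. Y-linked genes, Xist and Tsix were left out of the named genes, and other X-linked genes were kept. The Pld5 split and the genes of the thinned nuclei were chosen after values were seen. The members and lists were chosen with earlier results of these data known. Coordinates are from GENCODE vM21 and promoters from RefSeq, both GRCm38. The p-values measure the spread between libraries, 2 animals per group. Some genes are not reported here.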

Additional observations from a re-analysis of the deposited data

Results flagged for a closer look

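Rearing effects that differed by genotype were tested by the interaction term. Among well-expressed genes the likelihood ratio test called 2: Tafa1 (2.85 on the log2 scale) and Gpc6 (2.66). The quasi-likelihood test called neither.

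For rearing effects that differed from those of L6CT, the likelihood ratio test called Gm32647 (1.28 on the log2 scale), Smad3 (1.14), Cdh20 (1.10) and Ltbp1 (1.09). It also called Sema5b (−1.52), Hunk (−1.42), Adamts2 (−1.41) and Sorcs2 (−1.16). Neither other test called Gm32647 or Smad3. Against L5IT it called Foxo1 (1.14), Sphkap (0.89), Matn2 (0.77), Inpp4b (0.72), Slc26a4 (−3.16), Rspo2 (−2.36), Cdh9 (−2.22) and Sulf1 (−1.52). The quasi-likelihood test called 0 genes against L5IT, and DESeq2 called neither Matn2, Inpp4b, Slc26a4, Rspo2 nor Cdh9. Whether some nuclei labelled L5IT belong to L6IT was not tested. Positive values mean a higher DR to NR ratio in L6IT.

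In the 4 NR libraries the Matn2 level of 1 library, NR GR-KO male at 44.7 CPM, lay apart from the others, with a gap of 0.830 of the whole range against Dixon's critical value of 0.829. It was the only such case among 28 sets of 4 libraries examined, where chance gives about 1 in 20.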

How the results depend on the processing

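No paired analysis was possible because the library names carry no replicate number. Each group holds 1 male and 1 female library, so sex was entered as a term in alternative fits of the rearing, genotype and interaction comparisons. The main fits held no sex term. Under the quasi-likelihood F-test the count of called genes moved from 1059 to 548 for rearing over both genotypes, from 219 to 0 in GR-Con, from 851 to 22 in GR-KO, from 62 to 0 for genotype in NR, from 66 to 0 for genotype in DR, from 29 to 0 for the interaction, from 503 to 185 against L6CT and from 127 to 0 against L5IT. DESeq2 gave 107 in GR-Con, 510 in GR-KO, 17 and 25 for genotype in NR and DR, 11 for the interaction, 232 against L6CT and 20 against L5IT. A sex term gave 1366 in GR-KO, 190 for genotype in NR and 64 for the interaction, and 1 fit of all 8 libraries gave 13 and 28 for genotype in NR and DR. The quasi-likelihood test with a sex term, chosen after seeing the data, gave 419 over both genotypes, 0 in GR-Con, 1086 in GR-KO, 17 and 0 for genotype in NR and DR, and 1 for the interaction.

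Leaving out 1 library gave 483 (without DR GR-KO male) to 1448 (without DR GR-Con male) calls over both genotypes, 45 to 1068 in GR-Con, 130 to 1875 in GR-KO, 10 to 189 for genotype in NR, 9 to 714 for genotype in DR, 5 to 190 for the interaction, 335 to 683 against L6CT and 33 to 793 against L5IT (793 without NR GR-KO male). The cause of these shifts was not tested. With all nuclei as the denominator the DR minus NR difference in the L6IT share was −0.164 percentage points, against 0.0616 among excitatory nuclei, both within the spread between libraries. TMM against RLE scaling, no filter on low counts, thinned sums and nuclei without vector UMIs left every count within 1.5 times. Of 4007 values of called named genes under alternatives, 3042 kept direction and call, 965 kept direction and lost the call, and 0 changed direction. These genes were chosen as called, many of them without overlap of libraries, so a change of direction could hardly occur among them. Egr1 in GR-KO, which was not called, changed sign without the NR GR-KO male library. With 2 libraries a group, the likelihood ratio calls within 1 genotype or rearing rest on few libraries.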
